A study of Mus musculus with 4 samples.

Results

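The genes described here are 39 ribosome biogenesis and nucleolar factors, taken by gene symbol from the 52459 genes of the count table. All 39 were found and all 39 passed the filter on low counts. They were measured in intestinal stem cells (ISCs) of wild-type C57/Bl6 mice, which the study's methods describe as female, at 2 months of age (ISC_2mth, young) and at 22 months of age (ISC_22mth, old). Each age has 2 pools of 5 animals, no treatment was given, and the only difference by design is age. ISCs were sorted from small intestinal crypts by surface markers (the SM6 strategy), with a gate that takes CD31- and CD45- cells and so leaves out endothelium and leukocytes, and their RNA was amplified along the whole transcript before sequencing. The comparison asks how old ISCs differ from young ISCs in gene expression. Because whole pools were sequenced, a cell type holding fewer cells and one holding less RNA per cell cannot be told apart.

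Ribosomes are built in the nucleolus, where RNA polymerase I copies the ribosomal DNA into a long precursor RNA. Small nucleolar ribonucleoproteins (snoRNPs) modify that precursor, the box C/D class by methylation and the box H/ACA class by pseudouridylation. Large assemblies of processing factors then cut it and fold it into the small (40S) and large (60S) subunits. Fast-dividing cells such as crypt stem cells need many ribosomes, and the transcription factor MYC is a well-known activator of these genes.

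Several of the 39 genes also carry snoRNA genes within their own bounds, so that 1 primary transcript can give both a protein of the machinery and a guide RNA. In the GENCODE vM21 annotation, 6 of the 39 (15.4%) hold at least 1 snoRNA gene on the same strand, against 1.94% of the 11192 protein-coding genes tested. The hosts are Nop56, Nop58, Dkc1, Ncl, Tsr1 and Gnl3, with 18 snoRNA genes in all. The sequences printed here are 1 intronic snoRNA from each of Nop58, Nop56 and Ncl, chosen because the results turn on these hosts. The capitals mark the box C letters TGATGA and the last box D letters CTGA, where the core proteins NOP58, NOP56 and fibrillarin assemble. These exact letters were both held by 7 of the 18 snoRNA genes. Variant letters were not searched and the 18 were not sorted by class, so that the others do not thereby lack sites for these proteins. Snord11 lies at chr1:59704790-59704873 (plus strand) in Nop58, Snord110 at chr2:130275506-130275573 (plus strand) in Nop56, and Snord82 at chr1:86356261-86356330 (minus strand) in Ncl, all in GRCm38.
Snord11: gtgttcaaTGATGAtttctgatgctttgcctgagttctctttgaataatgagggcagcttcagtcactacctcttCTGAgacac
Snord110: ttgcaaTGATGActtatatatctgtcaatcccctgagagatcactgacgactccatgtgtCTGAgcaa
Snord82: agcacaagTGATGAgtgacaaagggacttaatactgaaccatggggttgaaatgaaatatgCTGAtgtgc
Few reads were counted on the snoRNA genes themselves, between 0 and 15 per gene and pool. Of the 18, 8 lay in introns and 10 overlapped an annotated exon of their host (in Nop56, Nop58, Ncl and Gnl3), where a read cannot be assigned to host or snoRNA by position alone. Those in exons of Nop56, Nop58 and Ncl were listed at 0 in every pool, which therefore does not show that the snoRNA was absent.

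The libraries held between 11662654 and 15975698 counts, of which 62.6 to 73.8% fell on mitochondrially encoded genes. Levels are given as normalised CPM (counts scaled to the library size after TMM normalisation), on which 3 counts equal 0.199 to 0.246 CPM depending on the pool. Counting error alone is covered by such a limit, since reads were amplified and carried no identifiers. All 11 ISC markers tested (Lgr5, Ascl2, Olfm4 and others) were detected, with a summed level, mostly Olfm4, of 2094 to 2253 CPM in young and 1910 to 2089 CPM in old ISCs. None had FDR under 0.05, but 9 of the 11 had a log2 fold change below 0 (median -0.16), 4 of them with an unadjusted p under 0.05 (Axin2, Rnf43, Sox9 and Tnfrsf19, lowest FDR 0.051 for Axin2), and Ascl2 was above 0 with such a p. Markers of other epithelial cells moved with age. Enterocyte markers summed to 321 and 439 CPM in young and 804 and 680 CPM in old ISCs, and Paneth markers to 936 and 720 CPM in young and 2074 and 805 CPM in old ISCs. Past FDR 0.05 and higher in old ISCs were 3 of 8 enterocyte and 2 of 7 Paneth markers. Enteroendocrine markers summed to 27.3 and 129 CPM in young and 115 and 80.01 CPM in old ISCs, with all 6 tested above 0 and 2 at an unadjusted p under 0.05. Goblet markers ranged over 1945 to 2563 CPM in young and 2069 to 2657 CPM in old ISCs. Leukocyte markers summed to 10.9 and 13.7 CPM in young and 21.5 and 21.1 CPM in old ISCs, nearly all of it Itgam, a myeloid integrin (log2 fold change 0.78, FDR = 0.030). The other 9 leukocyte markers together had between 6 and 30 counts per pool, with Ptprc, which encodes CD45, at 0 to 2 and Cd3d and Cd79a at 0. Tuft markers summed to 3.04 and 4.44 CPM in young and 8.78 and 5.00 CPM in old ISCs, where Dclk1 was higher (log2 fold change 3.09, FDR = 0.026), Pou2f3 had a log2 fold change of -0.21 and Il25 was at 0. The part of other epithelial cells in the values below was not tested.

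Of the 39 genes, 2 (5.13%) rose in old ISCs at FDR under 0.05, Npm1 and Nop58, and none fell. Npm1 encodes nucleophosmin, an abundant nucleolar phosphoprotein and histone chaperone, and Nop58 encodes a core protein of box C/D snoRNPs. Of all genes tested, 2.26% were called (1.63% higher and 0.628% lower), and 2.86% of those at or above the level of the lowest of the 39. The log2 fold changes of the other 37 genes lay between -0.32 and 0.62, with 18 above and 19 below 0. The median of all 39 was 0.021, against -0.0049 over all 13692 genes tested. An unadjusted p under 0.05 was reached by 6 of the 39 genes (15.4%), against 16.9% of all genes tested (9.26% higher and 7.65% lower), and all 6 were higher in old ISCs. The ages did not overlap in 17 genes (43.6%), with the old pools above in 9 and below in 8. Over all genes tested the ages did not overlap in 47.6%, with the old pools above in 24.0% and below in 23.6%. The 95% interval of the change lay within a 2-fold difference either way for 36 of the 39 genes, the exceptions being Fbl, Rrp9 and Utp18, and within a 1.5-fold difference for 25.

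**Figure D1:**
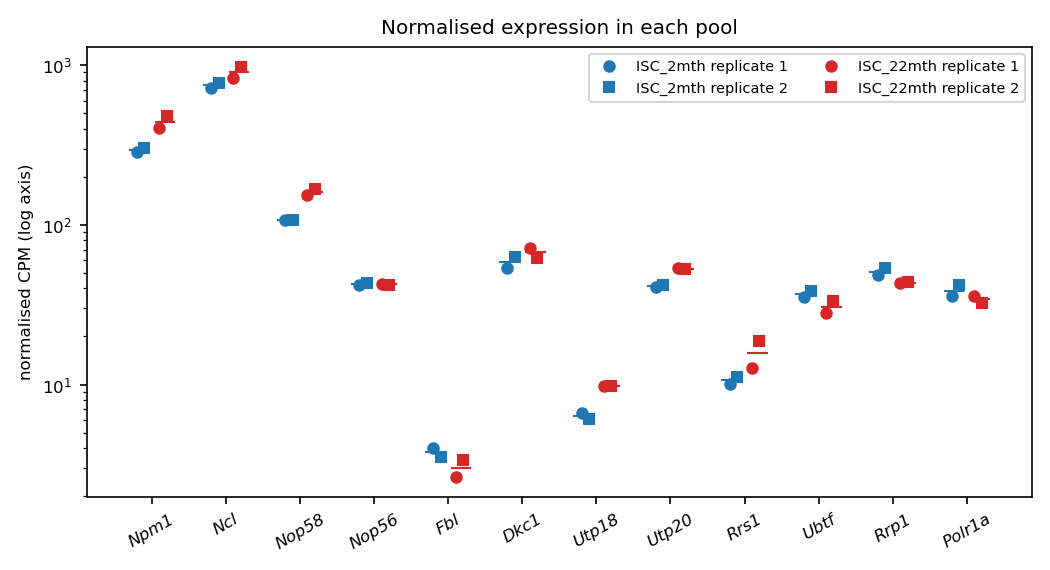
Normalised CPM (log axis) of 12 ribosome biogenesis genes in each of the 4 ISC pools, blue for ISC_2mth and red for ISC_22mth, with circles for replicate 1, squares for replicate 2 and horizontal lines for the mean of each age. The red points of Npm1 (402 and 481 CPM) and Nop58 (153 and 167 CPM) lie clear of the blue points (284 and 301 CPM, 107 and 107 CPM), whereas those of Nop56 lie on top of each other near 42 CPM.

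With total counts in place of TMM, all genes together had a median of -0.50 and the 39 genes one of -0.47, beside the larger mitochondrial share of the old libraries. This common shift put 16 of the 20 genes that were above 0 under TMM below 0, so that signs and calls with total counts say nothing particular of the 39 genes. Relative to that shift the 39 genes stood 0.025 higher, as they did under TMM (0.026 above the median of all genes). With total counts 0 of the 39 genes were called higher and 17 lower, beside 34.0% of all genes called. Counts relative to other nuclear genes do not depend on this choice. Together the 39 genes took 0.65 and 0.677% of the counts outside mitochondrial genes in the young pools, and 0.714 and 0.796% in the old pools. Without Ncl and Npm1, which alone held between 51.5 and 57.7% of their reads, the other 37 took 0.316 and 0.325% in young and 0.323 and 0.337% in old ISCs, and the ages overlapped.

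Among the nucleolar phosphoproteins, Npm1 had 4119 and 4544 counts in the young pools and 5316 and 5870 in the old pools. Its normalised expression was 284 and 301 CPM in young and 402 and 481 CPM in old ISCs, so that both old pools stood well above both young pools. The mean rose from 293 ± 12.0 to 442 ± 55.5 CPM (SD, n = 2 pools), which is 1.51-fold (log2 fold change 0.59, standard error 0.11, edgeR quasi-likelihood FDR = 0.01). Npm1 lies on chromosome 11 from 33152287 to 33163206 of GRCm38 on the minus strand, and other genes' transcripts hold 24.3% of its 50-nt stretches. Its near copy with the most reads, Gm14681, had 34 and 38 counts in young and 58 and 62 in old pools, and the count of Npm1 is uncertain where reads of such copies were split or dropped. The study lists Npm1, Nop58 and Ncl as changed with age on these same samples, so that their values here are no independent evidence. Ncl was not called here, nor by limma voom with sample quality weights, a test that the study's methods name.

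Ncl encodes nucleolin, which binds the precursor RNA and ribosomal chromatin, and had the most reads of the 39 genes. Its normalised expression was 724 and 773 CPM in young and 835 and 968 CPM in old ISCs, again without overlap of the ages. Its log2 fold change of 0.27 (standard error 0.11) had an unadjusted p of 0.020 but did not pass the threshold (FDR = 0.20). With total counts it was -0.22, against the common shift of -0.50. Ddx21, an RNA helicase that couples polymerase I transcription to processing, had 47.9 and 51.9 CPM in young and 49.9 and 61.1 CPM in old ISCs, with overlapping ages. Per kilobase of exon, Npm1 (138 CPM per kb) and Ncl (81.0 CPM per kb) were the most abundant of the 39 transcripts, followed by Nop10 (22.8) and Gar1 (22.1). This length is the union of all annotated exons of a gene, so that genes with many isoforms appear lower.

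In the box C/D core, Nop58 and its partner Nop56 differed. Nop58 had 1556 and 1615 counts in young and 2024 and 2034 in old pools, or 107 and 107 CPM against 153 and 167 CPM. It rose from 107 ± 0.238 to 160 ± 9.49 CPM (SD, n = 2), which is 1.49-fold (log2 fold change 0.58, standard error 0.12, FDR = 0.013). Nop58 lies on chromosome 1 from 59684971 to 59719044 on the plus strand, and 1.67% of its stretches are shared with other genes. Nop56, of whose 50-nt stretches 18.6% are shared with other genes, had 42.0 and 43.4 CPM in young and 42.9 and 42.1 CPM in old ISCs, with a log2 fold change of -0.0070 and a 95% interval from -0.28 to 0.27. Fbl, the methyltransferase of the complex, was the gene of lowest level, with 58 and 53 counts in young and 35 and 41 in old pools. Its log2 fold change of -0.32 had a 95% interval from -1.03 to 0.39, so that at this depth neither a rise nor a fall was detectable. Rrp9, which belongs to the U3 snoRNP, had between 44 and 49 counts in every pool and a log2 fold change of 0.34 (standard error 0.33).

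Ratios within a pool were taken after these values were seen, and do not depend on scaling. For each Nop56 read there were 2.56 and 2.47 Nop58 reads in the young pools, and 3.57 and 3.96 in the old pools. For each Ncl read there were 0.392 and 0.39 Npm1 reads in the young pools, and 0.482 and 0.497 in the old pools. The other ratios computed were Nop58 per Fbl (26.8 and 30.5 in the young pools, 57.8 and 49.6 in the old pools) and Dkc1 per Gar1 (1.38 and 1.58 in the young pools, 1.78 and 1.93 in the old pools). In all 4 the ages did not overlap. The log2 difference of Dkc1 per Gar1 (0.33), a pair of which neither gene passed the threshold, was as large as that of Npm1 per Ncl (0.32), so that the pattern is not particular to the called genes. Ratios do not remove a trend with GC content, which is described below. GC content of the longest transcript was 41.0% for Nop58, 50.1% for Nop56 and 52.1% for Fbl. It was 43.6% for Dkc1 and 57.0% for Gar1, and 42.4% for Npm1 and 42.8% for Ncl. The part of GC content in the ratios was not tested. With 2 pools against 2, the smallest p of an exact permutation test of such a ratio is 0.333, and none is given.

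**Figure D2:**
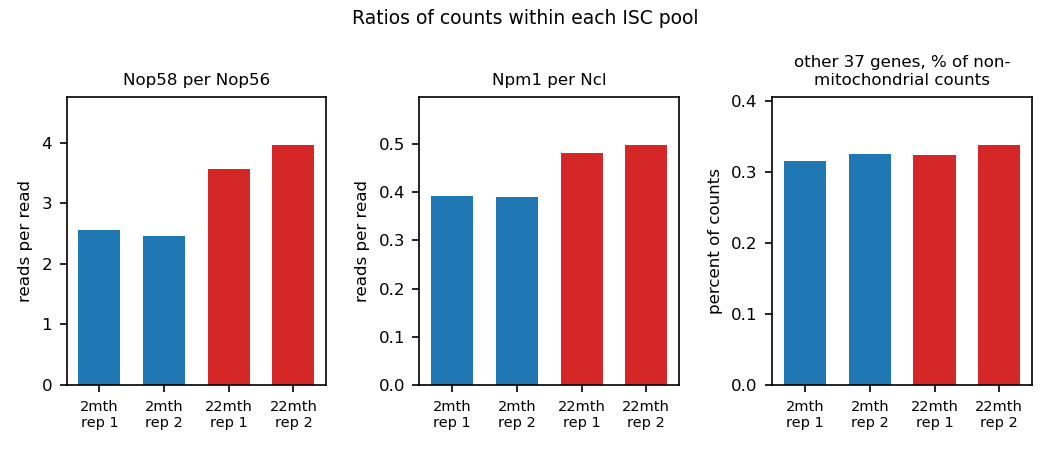
Bars give, for each of the 4 ISC pools (blue ISC_2mth, red ISC_22mth), the reads of Nop58 per read of Nop56, the reads of Npm1 per read of Ncl, and the percent of counts outside mitochondrial genes that fell on the other 37 ribosome biogenesis genes (without Ncl and Npm1). The first ratio is 2.56 and 2.47 in young and 3.57 and 3.96 in old pools, whereas the share of the other 37 genes stays between 0.316 and 0.337%.

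None of the 4 genes of RNA polymerase I transcription passed the threshold, and their median log2 fold change was -0.14. Ubtf, the upstream binding factor that holds ribosomal DNA in an open state, had 35.3 and 38.8 CPM in young and 27.9 and 33.6 CPM in old ISCs, both old pools lower (log2 fold change -0.27, standard error 0.15, FDR = 0.37). Polr1a, the largest subunit of the polymerase, had 35.6 and 41.7 CPM in young and 36.1 and 32.6 CPM in old ISCs. Polr1b, the second largest subunit, had 13.2 and 15.4 CPM in young and 11.4 and 15.0 CPM in old ISCs. The ages overlapped in both subunits, and also in Rrn3, which recruits the polymerase to its promoter (log2 fold change 0.12, standard error 0.19).

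None of the 5 box H/ACA genes passed the threshold, and the normalised levels of the ages overlapped in all 5. Dkc1 encodes dyskerin, the pseudouridine synthase, and had 53.8 and 63.3 CPM in young and 72.0 and 62.4 CPM in old ISCs (log2 fold change 0.20, standard error 0.13, FDR = 0.48). Nhp2, a small core protein, was the lowest of the group, with 14.1 and 10.9 CPM in young and 8.17 and 13.3 CPM in old ISCs. The log2 fold changes of the others were -0.097 for Nop10, -0.12 for Gar1 and 0.16 for Nolc1, a chaperone of snoRNPs.

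For the small subunit processome, which cuts the precursor on the way to 40S, the median log2 fold change over 8 genes was 0.12, and 6 lay above 0. Utp18 and Utp20 had the lowest p-values. Utp18 had 6.62 and 6.10 CPM in young and 9.84 and 9.75 CPM in old ISCs, a log2 fold change of 0.62 (standard error 0.22) with FDR = 0.16. Utp20 had 41.1 and 41.8 CPM in young and 53.4 and 52.7 CPM in old ISCs, a log2 fold change of 0.36 (standard error 0.13) with FDR = 0.16. In both genes the pools of 1 age lay close together and the ages did not overlap, but neither passed the threshold over all genes. The others ranged from -0.078 (Heatr1) to 0.30 (Ddx10), with Utp4, Bms1, Utp6 and Nop14 between them.

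In the late steps of the small subunit, 0 of 4 genes had an unadjusted p under 0.05, and the ages overlapped in all 4. Ltv1, an export and assembly factor of pre-40S particles, had 17.0 and 18.8 CPM in young and 21.9 and 18.4 CPM in old ISCs. Rrp12, a pre-ribosome export factor, had 6.07 and 8.48 CPM in young and 6.43 and 6.80 CPM in old ISCs. Nob1, the endonuclease that makes the final cut of the small subunit RNA, had a log2 fold change of -0.13 (standard error 0.26). Tsr1 had 0.14 (standard error 0.20), and its exons overlap those of Srr on the opposite strand over 1240 bp, where reads cannot be assigned without strand.

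None of the 11 large subunit factors passed the threshold. Of their log2 fold changes 7 lay below 0, and the median was -0.094. Rrp1, a nucleolar factor with the highest CPM of the group, had 48.4 and 53.4 CPM in young and 43.1 and 43.7 CPM in old ISCs (log2 fold change -0.23, standard error 0.13, FDR = 0.40). Nop16, the lowest of the group, had 8.69 and 8.22 CPM in young and 6.96 and 6.72 CPM in old ISCs (log2 fold change -0.31, standard error 0.23). Rrs1 went the other way. This factor, which delivers the 5S ribonucleoprotein to the pre-60S particle, had 10.1 and 11.1 CPM in young and 12.7 and 18.7 CPM in old ISCs (log2 fold change 0.56, standard error 0.21, FDR = 0.18), and most of its difference lay in ISC_22mth replicate 2. The PeBoW complex of Pes1, Bop1 and Wdr12 had log2 fold changes of -0.18, -0.023 and -0.094, with standard errors of 0.18, 0.22 and 0.17. Nop2, Rrp1b, Gnl3, Ddx18 and Nip7 ranged from -0.27 to 0.29.

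**Figure D3:**
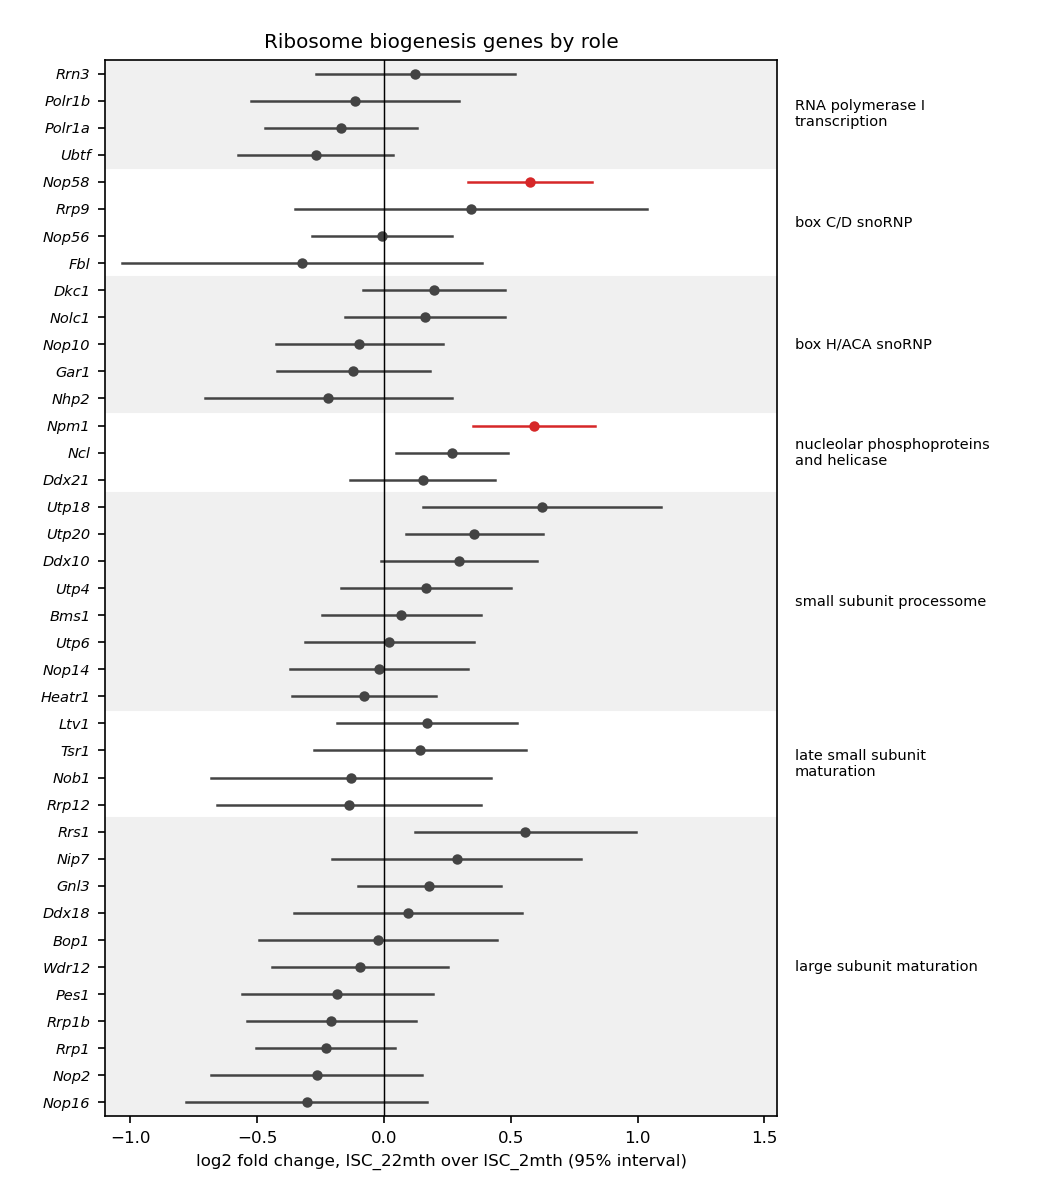
Log2 fold change of ISC_22mth over ISC_2mth (points) with its 95% interval (lines) for the 39 genes, grouped by role, with genes of FDR under 0.05 in red. The intervals of Nop58 and Npm1 lie farthest above 0, those of Ncl, Utp18, Utp20 and Rrs1 also exclude 0 before adjustment, and the other 33 include it.

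**Figure D4:**
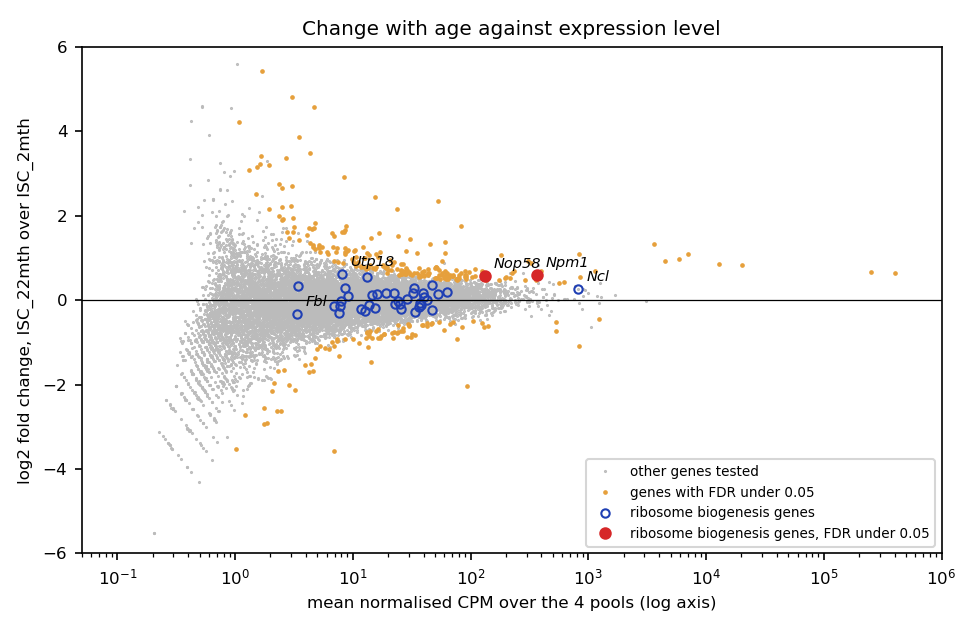
Log2 fold change of ISC_22mth over ISC_2mth against the mean normalised CPM over the 4 pools (log axis) for the genes tested (grey), genes of FDR under 0.05 (orange) and the 39 ribosome biogenesis genes (blue rings, red where FDR is under 0.05), with 15 genes outside the axes. The 39 genes lie between 3.38 and 825 CPM, and within -0.32 and 0.62 on the log2 scale.

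Npm1 and Nop58 were also the 2 genes called by limma voom (beside 2.34% of all genes), the likelihood ratio test (4.46%) and DESeq2 (1.44%), and by edgeR with TMM factors set without mitochondrial and ribosomal RNA-like genes (2.22%), no filter (2.24%), at least 10 counts in every library (2.11%) or a replicate block (4.55%). Their calls changed when a young pool was left out. The ranges of log2 fold change given next are over all 4 fits with a pool left out. In such fits the lone pool of an age is assumed to vary like the other age. Without ISC_2mth replicate 1 neither passed the threshold (FDR = 0.059 and 0.070), and without ISC_2mth replicate 2 only Npm1 did (Nop58, FDR = 0.055), while the log2 fold changes stayed between 0.46 and 0.72 for Npm1 and between 0.52 and 0.64 for Nop58. Without ISC_22mth replicate 1, Ncl (0.37, FDR = 0.028) and Rrs1 (0.81, FDR = 0.012) were called as well. Without ISC_22mth replicate 2, both Npm1 and Nop58 stayed called. The shares of all genes called in these 4 fits were 1.15, 2.17, 4.8 and 5.22%.

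The change with age varied with the GC content of the transcripts, a property that the choice of genes did not use. Among the 39 genes, GC content of the longest transcript ran from 40.4% (Wdr12) to 59.9% (Rrp9). The 19 genes under the median of 48.3% had a median log2 fold change of 0.17, and the 19 above it one of -0.14. Across the 39 genes Spearman's rho was -0.595 and Pearson's r -0.511, against -0.231 and -0.159 over 13236 genes tested, and among 140 other genes of ribosome biogenesis rho was -0.482. These are correlations across genes of the same 4 libraries, which share amplification and depth and are not independent replicates. Nop58 (41.0%), Utp18 (41.7%) and Npm1 (42.4%) were among the 4 genes of lowest GC content, Wdr12 being the fourth. Rrs1 (54.2%) and Rrp9 lay away from the trend. When offsets for the GC content and length of genes were fitted in each library over all genes, rho among the 39 fell to -0.384 in size. Nop58 then had a log2 fold change of 0.53 (FDR = 0.037) and remained called, whereas Npm1 had 0.44 (FDR = 0.086) and did not, beside 1.38% of all genes called.

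**Figure D5:**
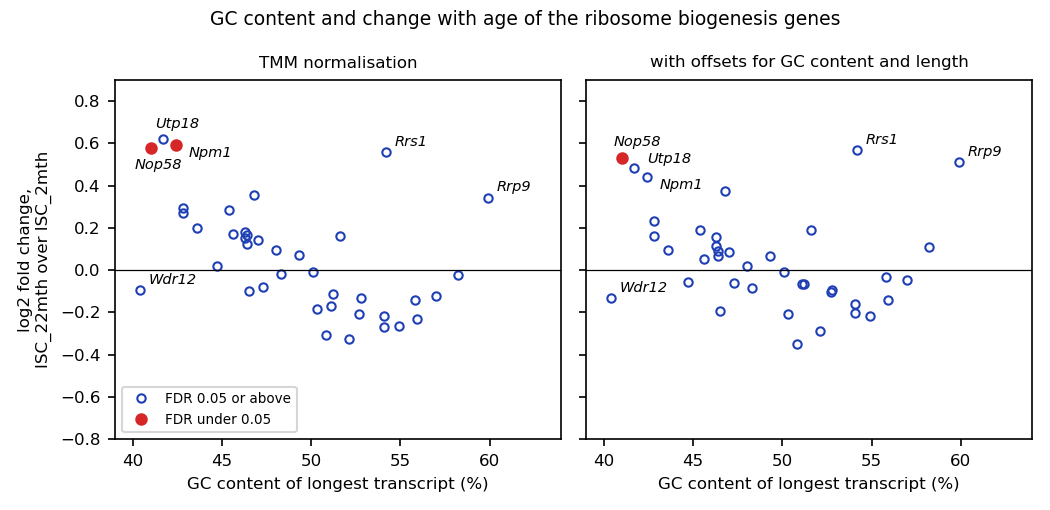
Log2 fold change of ISC_22mth over ISC_2mth against the GC content of the longest transcript (percent) for the 39 genes, with TMM normalisation on the left and with offsets for GC content and length on the right, and genes of FDR under 0.05 in red. Points fall from the upper left to the lower right in both panels (Spearman's rho -0.595 and -0.384), with Wdr12, Rrs1 and Rrp9 off the line.

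The wider pathway was read from 143 other genes of ribosome biogenesis, the RNA exosome and the MYC family, of which 141 were tested. None had FDR under 0.05 by edgeR's quasi-likelihood test, 21 had an unadjusted p under 0.05 (16 higher and 5 lower in old ISCs, 14.9% against 16.9% of all genes), and limma voom called 1, the likelihood ratio test 5 and DESeq2 0. Their median log2 fold change was 0.033, with 74 above and 67 below 0. The lowest FDR belonged to Nifk (0.059), a large subunit factor that binds Ki-67, with 272 and 251 counts in young and 347 and 329 in old pools. Next were Utp11 (log2 fold change 0.70, FDR = 0.069), Taf1d (0.42, FDR = 0.072) and Krr1 (0.54, FDR = 0.072). Krr1 is in the study's list of age-related genes from these samples, as are, as far as the names could be read, Utp11 and Nifk, so that these are no independent evidence either. On the lower side Ddx54 had 116 and 113 counts in young and 56 and 51 in old pools (-0.88, FDR = 0.079). The RNA exosome, which trims and degrades precursor RNA, had a median of 0.080 over 12 genes.

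Myc itself was well expressed, with 152 and 164 CPM in young and 185 and 189 CPM in old ISCs, both old pools higher. Its log2 fold change of 0.24 (standard error 0.11) did not pass the threshold (FDR = 0.29), and was -0.25 with total counts under the same shift. Mycn had between 19 and 22 counts in every pool. Max, the partner of MYC, had 56.8 and 58.6 CPM in young and 90.4 and 51.7 CPM in old ISCs, so that its log2 fold change of 0.30 rested on ISC_22mth replicate 1 and became -0.16 without it. The 13 proliferation markers (Mki67, Pcna, Mcm2 and others) had a median of 0.026 on the log2 scale, with 0 called by edgeR and 1 at an unadjusted p under 0.05.

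Upstream sequences were searched for the E-box CACGTG, to which MYC and MAX bind, in the 250 bases before each gene's start. It was present in 3 of the 33 genes searched (9.09%), against 8.47% of 9438 genes tested and 6.05% of all 27025 promoters of that length. Nop58 and Ncl did not hold these letters in that window, and Npm1, Fbl, Bop1, Rrp12, Rrs1 and Utp6 were not searched. The 3 stretches, with the E-box in capitals, are those of all 3 genes that held it. None of these genes, Utp18 (the gene of largest change), Rrn3 and Nop2, passed the threshold in either direction. They lie at chr11:93885767-93885813 (minus strand, Utp18), chr16:13780624-13780683 (plus strand, Rrn3) and chr6:125131796-125131855 (plus strand, Nop2) in GRCm38.p6.
Utp18: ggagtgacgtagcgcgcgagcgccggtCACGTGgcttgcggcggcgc
Rrn3: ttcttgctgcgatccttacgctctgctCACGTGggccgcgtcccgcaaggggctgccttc
Nop2: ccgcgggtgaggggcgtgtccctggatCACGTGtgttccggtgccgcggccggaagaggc
The E-box began 20, 48 and 60 bases before the start, in the same order, and Rrn3 held another at 215 bases. The ETS letters CCGGAAG, searched on both strands, were present in 11 of the 33 genes (33.3%) and in 30.2% of 116 other genes of the pathway, against 14.4% of the genes tested. The palindromic NRF1 motif was in 0 of the 33, against 1.74% of the genes tested. Such matches describe the sequence and are not binding sites.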

How the data were processed

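RNA of sorted ISCs was sequenced by the authors in 4 full-length libraries, each from a pool of 5 animals. The submitters' processing notes name Trimmomatic 0.30, STAR 2.4.2a and featureCounts, with alignment to GRCm38 and counting over exons of the GENCODE vM15 genes. The deposited values are raw read counts per gene, not normalized. Strand and multi-mapping settings of the counting are not given in the sources used here.

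A gene was tested if 1 or more pools had over 5 reads and over 1 CPM for it, as in the study's methods, and 13692 of 52459 genes passed. Ages were compared with edgeR 4.0.16 (R 4.3.3) by TMM normalization and the quasi-likelihood test without covariates, and p-values were adjusted over all genes kept (Benjamini-Hochberg, FDR, threshold 0.05). Standard errors and 95% intervals came from the log2 fold change and the F statistic. limma 3.58.1 (voom with sample quality weights) and edgeR's likelihood ratio test, both named in the study's methods, and DESeq2 1.42.0 were alternatives, with other scalings, filters, a replicate block, offsets for GC content and length (lowess, span 0.3), and each pool left out in turn. The fits were tested on simulated counts.

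Genes, lengths, overlaps and GC content came from GENCODE vM21 of GRCm38, matched by symbol. All 39 genes were matched. Upstream sequences came from a table of RefSeq promoters (GRCm38.p6), in which 33 of them were matched. The 39 genes, their roles and the other lists were chosen with earlier results of these data known. Values in every pool are given for genes past the threshold, for the lowest p, highest and lowest level of each role, for the 5 lowest p and the 5 largest changes, and for Npm1, Ncl, Myc, Mycn and Max. Names outside this rule were chosen after their values were seen. The restriction to genes with under 10% of shared 50-nt stretches and the comparisons with GC content were also chosen after seeing the data.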

Additional observations from a re-analysis of the deposited data

How the results depend on the processing

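The 2 called genes were the same, Npm1 and Nop58, under limma voom with sample quality weights, the likelihood ratio test, DESeq2, DESeq2's size factors, TMM without mitochondrial and ribosomal RNA-like genes, no filter, and at least 10 counts in every library. Of the 39 genes, 17 were called with total counts (all lower), 1 with offsets for GC content and length, and 0 to 4 with a pool left out, where the lone pool of an age is assumed to vary like the other age. Among the 33 genes with under 10% of shared stretches 1 was called, because Npm1 is not among them. The median log2 fold change of the 39 genes was -0.47 with total counts and 0.0084 to 0.077 with a pool left out. Of the other pathway genes, 46 were called with total counts, 5 by the likelihood ratio test, 1 by limma voom, 5 without a filter, and 0 to 7 with a pool left out. Over all genes the 309 calls became 4650 with total counts (96 higher and 4554 lower, against 223 and 86), 611 by the likelihood ratio test, 197 by DESeq2, 554 without a filter, 189 with the offsets, and 151 to 710 with a pool left out. The sign of the log2 fold change differed from that under TMM in 16 of the 39 genes with total counts, where the median of all genes was -0.50, 2 with the offsets, 1 with at least 10 counts in every library and 2 to 7 with a pool left out. Among the genes that the rule selected for values in every pool, MYC family included, those that did so were, with total counts, Dkc1 (-0.29), Ncl (-0.22), Ddx21 (-0.33), Utp20 (-0.14), Ltv1 (-0.32), Myc (-0.25), Mycn (-0.12) and Max (-0.20), and, with a pool left out, Polr1b (-0.32 to 0.071), Nhp2 (-0.61 to 0.097), Rrp12 (-0.36 to 0.12) and Max (-0.16 to 0.65). Nop56, given in addition to that rule, also changed sign with the second pool of either age left out. The cause of these changes in calls and signs was not tested, for total counts or for the other settings.

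Pools of the same number come from different animals, and their deviations from the mean of their age had a correlation of -0.0031 over all genes tested. Such a value over all genes cannot show whether pools of the same number shared a batch that touched some genes. With the replicate block, 2 of the 39 genes, 6 of the other pathway genes and 623 of all genes were called. Depth limits Fbl and Rrp9 most, with standard errors of 0.34 and 0.33.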

Other observations

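Fbl, whose protein joins NOP56 and NOP58 in every box C/D snoRNP, was the gene of lowest level per length of the 39, at 0.803 CPM per kb of exon, against 10.4 for Nop56 and 12.4 for Nop58. Of its 50-nt stretches, 19.7% occur in transcripts of other genes, and its annotated exons add up to 4209 bp.

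Ddx18, Tsr1 and Pes1 also share many stretches with other genes (55.9%, 29.1% and 23.3%), as does Nop56 (18.6%), so that their counts are uncertain where the counting split or dropped such reads. Of the 6 genes of the sort gate tested, Cd24a was higher in old ISCs (log2 fold change 0.68, FDR = 0.0035 by edgeR's quasi-likelihood test), while Ephb2 (-0.52, FDR = 0.058) and Cd44 (-0.24, FDR = 0.37) had values below 0 without passing the threshold.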
